A study of Homo sapiens with 14 samples.

Results

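The interferon-stimulated genes are a set of 47 human genes that cells switch on in response to interferon, taken by gene name from a list of known members of the pathway. Their rows were taken from the count files by gene name, and they make up 47 of 59471 gene names. Reads were found for 39032 of these names in the series. RNA-seq of polyA RNA was carried out in SCC23, an established head and neck squamous cell carcinoma (HNSCC) line grown in high-glucose DMEM. KMT2D-WT cells had received Cas9 with a guide against LacZ, a bacterial gene, whereas in the lines KO1 and KO2 (KMT2D-KO) Cas9 had been delivered with a guide against KMT2D, the gene of a histone H3 lysine 4 methyltransferase. KO1 and KO2 were made with different guides. The transfected cells were sorted for GFP, and the sources used here do not describe the lines as single clones. Cells were kept in glucose (+Glc) or deprived of it for 6 h (−Glc), in 2 experiments, so that both genotypes and all groups share the SCC23 background and the Cas9 plasmid. Each glucose condition had 3 KMT2D-WT libraries (1 in experiment 1 and 2 in experiment 2) and 4 KMT2D-KO libraries (1 of each line in each experiment). No library was treated with interferon according to the labels.

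Type I and type III interferons bind their receptors and activate the kinases JAK1 and TYK2, which phosphorylate transcription factors of the STAT family. STAT2 and IRF9 are subunits of ISGF3, which binds the interferon-stimulated response element (ISRE), whereas interferon gamma acts through the gamma-activated site (GAS). Epithelial and cancer cells express part of this programme without added interferon, and several of the genes encode sensors of foreign RNA, antiviral effectors and feedback inhibitors of the pathway.

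Promoters of members on which the results below turn are shown first. Only promoters with a match to ISRE or GAS, the elements through which these genes are known to be switched on, are shown. ISRE was searched as GAAA followed by any 2 bases and GAAA again, and GAS as TTCNNNGAA on both strands from 250 bases before to 50 bases after each gene start, with overlapping matches kept, in the RefSeq promoters of GRCh38.p14. An entry was found for 38 of the 47 members (DDX58 under its newer symbol RIGI) with 51 promoters, and there was none for DHX58, IRF7, USP18, OAS2, OASL, IFIT2, MX2, IFITM2 and TRIM22. The ISRE letters were present in 26 of the 38 members and in 60.8% of their promoters, against 3.57% of all 35116 promoters. For the GAS letters these shares were 27.5% and 7.66%. The windows below are given 5′ to 3′ on the strand of the gene in GRCh38, with the matched letters in capitals (ISRE, except GAS for IRF1), showing the matches that lie whole in the window. A further ISRE match of IFIT5 runs past the end of its window, where its first bases are in lower case. Further ISRE matches of OAS3, and of another promoter of IFIT3, lie outside their windows. DDX58, STAT2, SAMD9L and UBE2L6 have promoter entries without a match to either element and are not shown.
IFIT1 (chr10:89392483-89392545, plus strand): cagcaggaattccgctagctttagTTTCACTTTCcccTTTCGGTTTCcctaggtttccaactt
IFIT3 (chr10:89327828-89327897, plus strand): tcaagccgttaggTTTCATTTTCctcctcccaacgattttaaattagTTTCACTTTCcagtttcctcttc
IFIT5 (chr10:89414498-89414567, plus strand): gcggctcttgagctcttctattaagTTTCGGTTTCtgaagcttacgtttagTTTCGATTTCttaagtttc
SAMD9 (chr7:93118076-93118145, minus strand): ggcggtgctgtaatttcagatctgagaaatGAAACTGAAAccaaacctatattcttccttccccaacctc
IRF1 (chr5:132490859-132490928, minus strand): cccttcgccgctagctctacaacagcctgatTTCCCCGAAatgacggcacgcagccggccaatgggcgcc
ISG15 (chr1:1013357-1013426, plus strand): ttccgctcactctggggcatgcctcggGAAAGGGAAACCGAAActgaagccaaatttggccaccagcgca
OAS3 (chr12:112938301-112938370, plus strand): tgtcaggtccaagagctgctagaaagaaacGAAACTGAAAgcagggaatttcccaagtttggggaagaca
GBP1 (chr1:89065296-89065365, minus strand): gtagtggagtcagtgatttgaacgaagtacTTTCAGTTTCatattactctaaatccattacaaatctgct
IFITM3 (chr11:320865-320934, minus strand): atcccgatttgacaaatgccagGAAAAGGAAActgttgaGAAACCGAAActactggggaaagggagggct
IFIT1, IFIT3, IFIT5, SAMD9 and IRF1 were lower in KMT2D-KO cells in at least 1 glucose condition, GBP1, IFITM3 and ISG15 were higher in KMT2D-KO cells without glucose, and OAS3 differed between the KO lines. The ISRE letters did not separate these groups. With glucose they were in 8 of the 11 members with a promoter entry that were lower in KMT2D-KO and in 15 of the 22 that were tested and not called, and without glucose in 5 of 8 lower, 4 of 6 higher and 14 of 19 not called. A match is a description of letters and not a binding site.

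The libraries held 15669154 to 62968057 counts, and the 47 members together took between 0.0693% and 0.115% of them. Differences in KMT2D RNA do not check the labels, since a count over the whole gene does not show a small edit. KMT2D was at 265 to 279 CPM (the read count per library size after TMM scaling over all 14 libraries) in KMT2D-WT with glucose, 182 and 184 in KO1, and 322 and 373 in KO2. Without glucose it was at 230 to 239 CPM in KMT2D-WT and at 19.9, 190, 152 and 145 CPM in KMT2D-KO (labelled KO1 and KO2 of experiment 1, then of experiment 2). In 20 genes that separate the lines with glucose, the −Glc library of experiment 2 labelled KO1 lay close to line KO2, with a mean distance of 0.399 on the log2 scale to KO2 and 3.94 to KO1. The 2 −Glc libraries of KMT2D-WT and the 2 of KMT2D-KO in experiment 2 also differed within each pair by only 1.65 and 1.71 times the sampling noise (chi-square per gene), against 23.0 to 72.7 in the other pairs. Those other pairs were KO1 against KO2, or KMT2D-WT counted on both mates (25.3), so none was a like pair for reference. Because of the close pairs and the library labelled KO1, results without glucose are also given with these pairs summed or with single libraries left out. Epithelial markers were present, with EPCAM at 231 to 426 CPM, TP63 at 70.9 to 244, CDH1 at 49.8 to 226, KRT14 at 26.5 to 253 and KRT5 at 1.5 to 225 CPM, and KRT6A was under 1.2 CPM throughout. With glucose KRT14 was at 184 to 244 CPM in KMT2D-WT and 26.5 to 136 CPM in KMT2D-KO, without overlap. Of other cell types, the leukocyte markers PTPRC, CD3E and LYZ were under 0.2 CPM in every library and CD14 was at 0.0560 to 1.10 CPM, and the endothelial markers PECAM1, VWF and CDH5 summed to 0.304 to 4.11 CPM, with PECAM1 and VWF at 0 to 0.307 CPM. Fewer cells of a type and less RNA per cell cannot be told apart in such bulk samples.

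Most members were measurable in SCC23 cells without added interferon, at levels spread over 5 orders of magnitude. Per length, the highest mean levels over the 14 libraries were those of IFITM3, which restricts virus entry at membranes (55.0 RPKM, 29.8 to 103), LGALS3BP, a secreted glycoprotein (44.9 RPKM, 18.8 to 70.9), UBE2L6, the conjugating enzyme of ISG15 (23.6 RPKM, 9.07 to 35.2), and OAS3, a 2′-5′ oligoadenylate synthetase (14.3 RPKM, 8.28 to 19.2). The ranges of neighbouring members in this order overlapped. Of the IFITM3 exons, 24.9% are shared with another gene, and reads were counted without strand. Many strongly inducible genes were near 0: RSAD2 (viperin) had a mean of 0.0064 RPKM, MX2 0.0063, XAF1 0.0027 and IFI44L 0.00041. On the CPM scale 34 members had a mean of at least 1 CPM, 21 of at least 10 CPM, and 9 stayed under 1 CPM in every library. DHX58, MX2, BST2, RSAD2, CMPK2, IFI44L and XAF1 passed the filter on low counts in none of the comparisons, and nothing is said of their response.

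**Figure D1:**
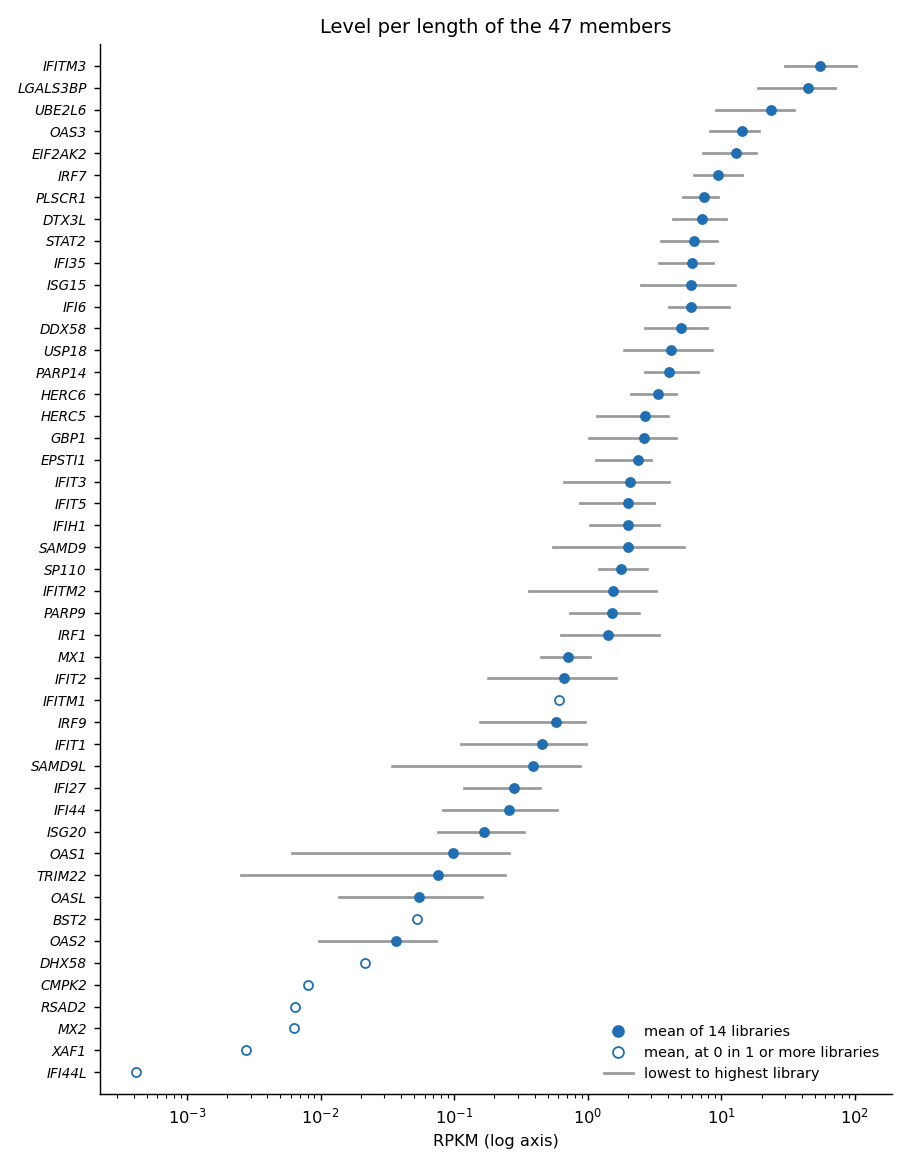
Level of each of the 47 members per length of its exons, in RPKM on a log axis. Points are means over the 14 libraries and lines run from the lowest to the highest library; open points were at 0 in at least 1 library and have no line. IFITM3 was the highest at 55.0 RPKM and IFI44L the lowest.

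The first comparison asked how KMT2D loss changes these genes in cells kept in glucose. No member rose and 16 fell in KMT2D-KO cells, among them all 4 IFIT genes, 3 of the 4 transcription factors, both tested RNA sensors and USP18, though the calls of IRF9 and of the sensor IFIH1 were lost in most fits that leave out 1 library. Of the 47 members, 40 could be tested (edgeR's quasi-likelihood test with experiment as a covariate, Benjamini-Hochberg adjusted p under 0.05), and 16 of them (40.0%) were lower against 11.7% of all genes tested, and 0 were higher against 13.0%. At an unadjusted p under 0.05 edgeR also gave 0 higher members and 21 lower ones (against 19.1% and 17.3% of all genes), and DESeq2 with the same covariate called 0 and 17 (against 15.1% and 13.0%). The median log2 fold change of the 40 was -0.54, against 0.02 over all genes, and 34 of them were negative. The KO libraries lay below the WT libraries within both experiments in 20 of the 40 members, against 21.3% of all genes, and above them in 0, against 21.7%.

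Among the factors that carry the signal, IRF1, a transcription factor induced by interferon gamma, was at 26.5, 14.9 and 15.0 CPM in KMT2D-WT and at 7.43, 6.50, 12.1 and 8.54 CPM in KMT2D-KO (KO1 in both experiments, then KO2). Every KO library was below every WT library, and the log2 fold change was -1.16 (SE 0.19, adjusted p = 0.00251). IRF7, which drives the amplification of type I interferon, was at 23.2 to 35.3 CPM in KMT2D-WT and 16.2 to 19.9 CPM in KMT2D-KO, a log2 fold change of -0.68 (SE 0.10, adjusted p = 0.00185). IRF9, the DNA-binding subunit of ISGF3, was low at 2.87 to 3.39 CPM in KMT2D-WT and fell to 1.53 to 2.08 CPM (log2 fold change -0.75, SE 0.20, adjusted p = 0.0268). The IRF9 call was kept in 2 of the 7 fits that leave out 1 library, those without either KO library of experiment 1. Again the groups did not overlap, but 42.2% of the IRF9 exons and 22.1% of those of IRF1 are shared with other genes, and reads were counted without strand. STAT2, the other ISGF3 subunit of the set, was at 42.4 to 57.1 CPM against 32.5 to 43.7 CPM and did not pass the test (log2 fold change -0.36, SE 0.14, adjusted p = 0.102).

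The IFIT proteins bind viral RNA, and their 4 genes lie together on chromosome 10 between 89283694 and 89420997 in GRCh38. IFIT2 was at 3.46 CPM in KMT2D-WT of experiment 1 and at 5.91 and 6.58 CPM in experiment 2, while KO1 had 0.737 and 1.12 CPM and KO2 had 0.919 and 2.33 CPM. This was a log2 fold change of -1.92 (SE 0.27, adjusted p = 0.00119), or 3.78-fold. IFIT3 was at 6.87, 9.27 and 9.11 CPM in KMT2D-WT and at 3.87, 2.82, 2.42 and 2.14 CPM in KMT2D-KO, 3.05-fold lower (log2 fold change -1.61, SE 0.24, adjusted p = 0.00165). No KO library reached the lowest WT library for either gene. Of the IFIT2 exons, 10.3% are shared with other genes. IFIT1 was at 3.94 ± 0.49 CPM (SD, n = 3) in KMT2D-WT and 1.84 ± 0.46 CPM (SD, n = 4) in KMT2D-KO, with a log2 fold change of -1.06. IFIT5 was at 11.3 ± 2.0 and 6.80 ± 1.36 CPM, with a log2 fold change of -0.65.

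USP18, which removes ISG15 from proteins and blocks the type I interferon receptor, was at 10.7, 14.4 and 15.8 CPM in KMT2D-WT and at 3.87, 7.21, 4.21 and 6.23 CPM in KMT2D-KO. It was lower in all 4 KO libraries, and had the smallest adjusted p of the set (log2 fold change -1.25, SE 0.14, adjusted p = 0.000358). The ubiquitin-like modifier ISG15 itself did not follow: it was at 2.33 to 5.86 CPM against 2.19 to 6.48 CPM, with a log2 fold change of -0.05 (SE 0.22, adjusted p = 0.889). The ligases HERC5 and HERC6 had log2 fold changes of 0.19 and 0.14 and were not called. The RNA sensors DDX58 (RIG-I) and IFIH1 (MDA5) fell by 0.57 and 0.44 on the log2 scale, but the call of IFIH1 was kept in only 1 of the 7 fits that leave out 1 library (without the KO1 library of experiment 2) and was lost in the fit of all 14 libraries. DDX58 was at 18.8 CPM in KMT2D-WT against 14.5 and 12.4 CPM in KO1 and KO2 of experiment 1, and at 34.4 and 36.1 against 24.5 and 21.1 CPM in experiment 2, so that the genotypes were separate only within an experiment.

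Of the effectors, SAMD9, an antiviral restriction factor, fell by 0.99 on the log2 scale, from 9.10 to 6.08 and 3.97 CPM in experiment 1 and from 27.9 and 36.3 to 15.3 CPM in both lines in experiment 2. MX1, a dynamin-like GTPase, fell by 0.69, from 6.65 to 7.85 CPM in KMT2D-WT to 3.82 to 5.09 CPM in KMT2D-KO. IFITM2, a restriction factor at membranes, fell by 1.40, from 1.57 to 4.17 CPM to 0.560 to 2.27 CPM. Its groups overlapped across experiments, and 22.7% of its annotated exon length overlaps that of IFITM1. The IFITM genes are also close paralogues, so their reads may be divided between them. IFITM1 (0.547 to 1.69 CPM against 0 to 0.580 CPM) and TRIM22, an antiviral ubiquitin ligase (0.759 to 1.42 against 0.0152 to 0.238 CPM), were also lower, at levels too low for a firm size. PARP14, an ADP-ribosyltransferase, fell by 0.38. edgeR called no member of the oligoadenylate synthetase and PKR group. OAS3 had a log2 fold change of -0.58 (SE 0.20, adjusted p = 0.0677) and was called lower by DESeq2 with the same covariate, with no filter on low counts, in the fit of all 14 libraries and without the KO2 library of experiment 2, and EIF2AK2, which encodes PKR, one of 0.01 (SE 0.09, adjusted p = 0.955).

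With experiment left out of the fit, 3 of the 16 remained called (IFIT2, IFIT3 and USP18), and DESeq2 without a covariate called 10. Leaving out the WT library of experiment 1 gave 8 calls and leaving out the second WT library of experiment 2 gave 10, and DDX58, IFIT2, IFIT3, IFITM2, IRF7, SAMD9 and USP18 were called whichever library was left out. IFIT1, IFIT5, MX1, PARP14 and TRIM22 were called in 5 of these 7 fits, IRF1 in 6 and IFITM1 in 3. The summed level of 4 fibroblast markers (COL1A1, COL1A2, PDGFRB and LUM) was 5.72 to 7.08 CPM in KMT2D-WT and 12.5 to 21.2 CPM in KMT2D-KO, of which COL1A1 made up 4.99 to 6.91 and 11.5 to 16.0 CPM and COL1A2 0 to 0.857 and 0 to 5.33 CPM, with LUM at 0 to 0.270 CPM, and the 6 squamous markers summed to 640 to 705 CPM in KMT2D-WT and 476 to 758 CPM in KMT2D-KO. The part of these markers in the result was not tested.

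**Figure D2:**
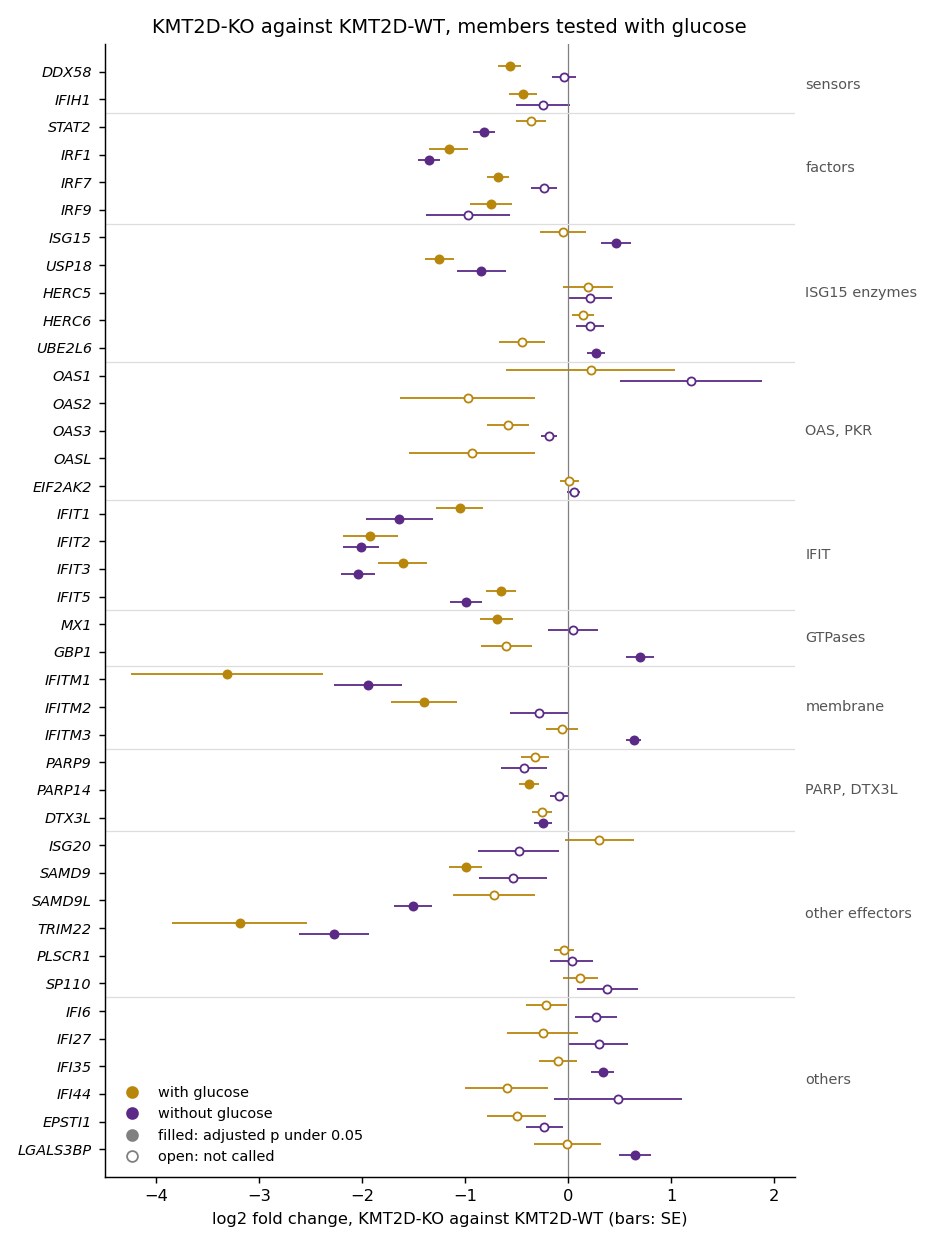
log2 fold change of KMT2D-KO against KMT2D-WT for the 40 members tested with glucose, with glucose in gold and without glucose in purple, grouped by role; bars are standard errors, filled points have an adjusted p under 0.05. The 4 IFIT genes, IRF1 and USP18 lie to the left of 0 in both conditions, and ISG15, UBE2L6, GBP1, IFITM3, IFI35 and LGALS3BP are filled to the right of 0 without glucose.

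The second comparison asked the same after 6 h without glucose. The IFIT genes, IRF1 and USP18 were lower in KMT2D-KO cells here too, and a second group of members was higher. Of 38 members tested, 11 fell (28.9%, against 24.9% of all genes) and 6 rose (15.8%, against 25.9%), so that the shares were near or below those of all genes. The median log2 fold change was -0.21, against 0.0029 over all genes. The KO libraries were below the WT libraries within both experiments in 14 members, against 32.3% of all genes, and above them in 6, against 31.6%.

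IFIT3 was at 9.02, 8.67 and 10.2 CPM in KMT2D-WT and at 2.19, 1.68, 2.32 and 2.76 CPM in KMT2D-KO (log2 fold change -2.04, SE 0.17, adjusted p = 0.000154), a 4.11-fold difference. In this list and those of this comparison below, KMT2D-KO values are those labelled KO1 and KO2 of experiment 1, then of experiment 2. IFIT2 was at 4.03, 3.94 and 4.54 CPM against 1.06, 0.953, 0.996 and 1.13 CPM (log2 fold change -2.01, SE 0.17, adjusted p = 0.000194). IRF1 was at 16.2, 12 and 13.0 CPM against 6.45, 5.94, 4.93 and 5.19 CPM (log2 fold change -1.35, SE 0.11, adjusted p = 0.000138). In these 3 genes the highest KO library was at less than the lowest WT library by a wide margin. IFIT1 fell by 1.64 (from 1.97 to 2.72 CPM to 0.522 to 1.38 CPM) and IFIT5 by 0.99 (from 10.1 to 11 CPM to 3.53 to 6.40 CPM). USP18 fell by 0.84, from 7.57 to 9.11 CPM to 3.47 to 8.33 CPM, with its groups overlapping across experiments. Its call was lost without either WT library or either KO library of experiment 2 (log2 fold change -1.23 to -0.72 over the 7 fits that leave out 1 library), with the close pairs summed and with experiment left out. SAMD9L, the paralogue of SAMD9, fell by 1.51, from 2.08, 4.56 and 5.60 CPM to 0.672 to 1.88 CPM. STAT2 fell by 0.82, from 38.2 to 56.0 CPM to 21.8 to 38.3 CPM, and IFITM1, TRIM22 and the ubiquitin ligase DTX3L were also lower, DTX3L in 2 of the 7 fits that leave out 1 library and not by DESeq2.

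GBP1, a guanylate-binding GTPase, was at 10.3, 13.1 and 13.9 CPM in KMT2D-WT and at 20.0, 15.2, 20.7 and 22.4 CPM in KMT2D-KO (log2 fold change 0.69, SE 0.14, adjusted p = 0.00554). IFITM3 was at 71.3 CPM in KMT2D-WT against 118 and 112 CPM in KMT2D-KO of experiment 1, and at 40.7 and 38.9 against 61.1 and 61.6 CPM in experiment 2 (log2 fold change 0.63, SE 0.08, adjusted p = 0.000688). Both genes were higher in KMT2D-KO in both experiments. LGALS3BP rose by 0.65 on the log2 scale, to 242, 229 and 226 CPM in 3 KO libraries from 124 to 152 CPM in KMT2D-WT, but the KO1 library of experiment 1 had 151 CPM. The 3 libraries are KO2 of experiment 1 and those of experiment 2 that lie close to KO2, a line in which LGALS3BP was above KMT2D-WT with glucose too (log2 fold change 0.48, and -0.76 in KO1), so that genotype and line are mixed in this value. Its call was lost with the close pairs summed, in the fit of all 14 libraries and without either WT library of experiment 2. ISG15 rose by 0.46, UBE2L6 by 0.27 and IFI35, a leucine zipper protein, by 0.33. In experiment 1 UBE2L6 was at 60.8 CPM in KMT2D-WT, 59.6 CPM in KO1 and 72.6 CPM in KO2. Genotype and line are therefore mixed in its value too. These 3 calls were weak: ISG15 and IFI35 kept theirs in 2 of the 7 fits that leave out 1 library (those without either KO library of experiment 1) and UBE2L6 in 1 (without the KO1 library of experiment 1), and all 3 lost them with the close pairs summed, with no filter on low counts and in the fit of all 14 libraries.

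The count of higher members moved when single libraries were left out. Without the −Glc library of experiment 2 labelled KO1, 3 members were higher, and with the close pairs summed 1 was higher (IFITM3) and 6 were lower (IFIT2, IFIT3, IFIT5, IRF1, SAMD9L and STAT2). Without the other KO library of experiment 2 or the WT library of experiment 1, 3 were higher, and without either WT library of experiment 2, 2 were higher, while leaving out the KO1 library of experiment 1 raised the count of lower members to 19. The 4 fibroblast markers summed to 3.13 to 5.57 CPM in KMT2D-WT and 7.36 to 13.9 CPM in KMT2D-KO, the 3 endothelial markers to 0.387 to 0.799 and 2.19 to 3.31 CPM, and the 6 squamous markers to 640 to 723 CPM and to 579 CPM in KO1 of experiment 1 and 1138 to 1235 CPM in the other 3 KO libraries. The part of these markers in the result was not tested.

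Both comparisons called 8 members lower: IRF1, IFITM1, TRIM22, IFIT1, IFIT2, IFIT3, IFIT5 and USP18. For USP18 the call without glucose was lost in 4 of 7 fits that leave out 1 library. The 8 members are 50% of the members lower with glucose and 72.7% of those lower without it. Over all genes tested in both, 9.94% were lower in both conditions, which is 68.6% of the genes lower with glucose and 39.1% of those lower without it.

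**Figure D3:**
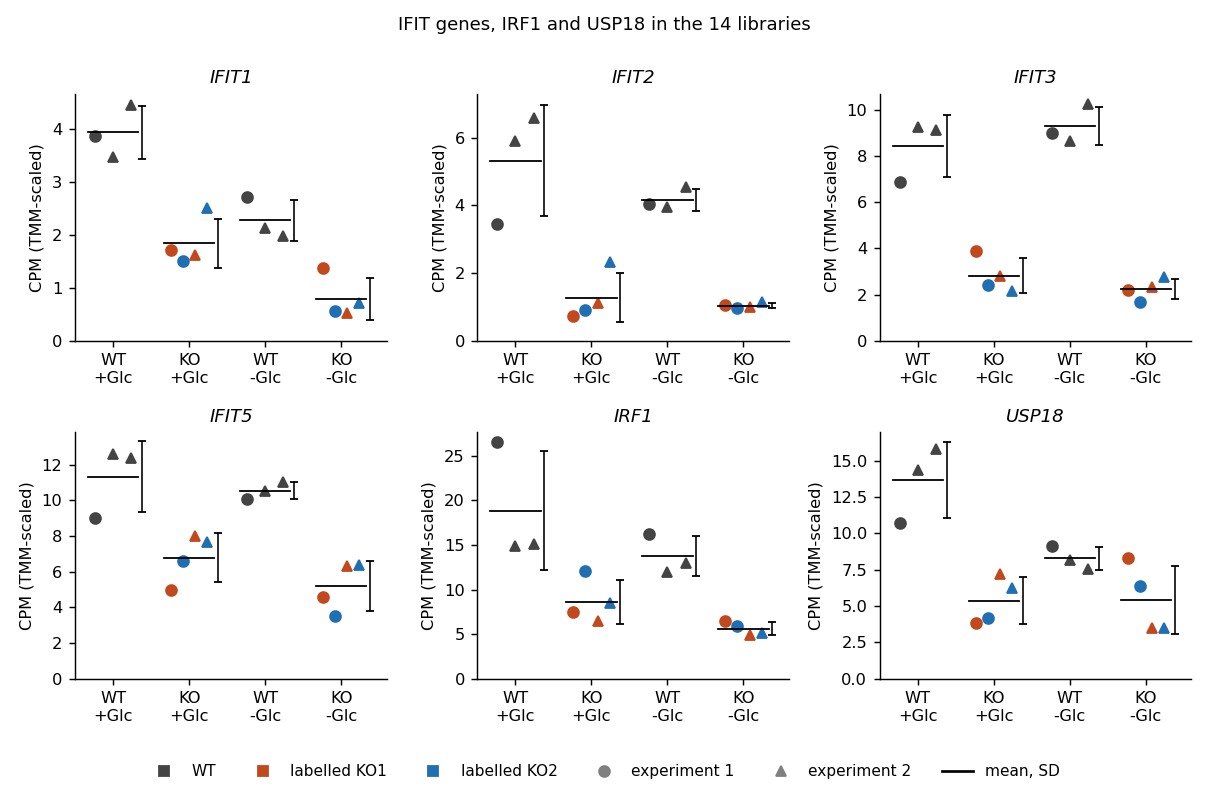
CPM of IFIT1, IFIT2, IFIT3, IFIT5, IRF1 and USP18 in each of the 14 libraries, by genotype and glucose; colours are the labelled lines, circles experiment 1 and triangles experiment 2, and the line and bar are the mean and SD of a group (n = 3 or 4). In IFIT2 and IFIT3 every KO library lies below every WT library; in USP18 without glucose the groups overlap.

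Whether the KMT2D-KO effect depends on glucose was tested in a fit of all 14 libraries. The difference was called in 3 of 38 members, DDX58, GBP1 and IFITM3, each with a KO effect that was more positive without glucose (7.89%, against 4.73% of all genes), and in 0 members in the other direction, against 6.54%. At an unadjusted p under 0.05 edgeR gave 8 members in the first direction and 0 in the other (against 13.0% and 14.3% of all genes), and DESeq2 with the same covariates called 6 and 0 (against 9.66% and 8.93%). For GBP1 the KO effect was -0.60 with glucose, not called in the main fit of that condition, and 0.69 without it. The difference was 1.32 (SE 0.30, adjusted p = 0.0169). With glucose GBP1 was called lower in the fit of all 14 libraries, with no filter on low counts and without the KO2 library of experiment 1. For IFITM3 the KO effect was -0.06 and 0.63, a difference of 0.72 (SE 0.18, adjusted p = 0.0253). For DDX58 it was -0.57 and -0.04, a difference of 0.55 (SE 0.16, adjusted p = 0.041).

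In experiment 2 both −Glc KO libraries lie close to KO2, so the differences above mix line with glucose. With glucose GBP1 was lower in KO1 than in KO2 (log2 fold change -0.83, SE 0.17). The lines could be compared with themselves in experiment 1, where both −Glc KO libraries lay close to their labelled line (mean distance 0.601 for KO1 and 0.335 for KO2), although KMT2D stood at 19.9 CPM in that KO1 library. GBP1 went from 6.08 to 20.0 CPM in KO1, from 10.3 to 15.2 CPM in KO2 and from 11.1 to 10.3 CPM in KMT2D-WT after glucose withdrawal. IFITM3 went from 66.6 to 118 CPM, from 87.3 to 112 CPM and from 69.5 to 71.3 CPM. DDX58 went from 14.5 to 18.5 CPM, from 12.4 to 14.2 CPM and from 18.8 to 17.7 CPM. In all 3 genes both lines went up and KMT2D-WT differed by less than either line. For the IFIT genes the difference between glucose conditions was between -0.57 and -0.07 and was not called. The call of GBP1 was lost without the −Glc WT library of experiment 1 or the first one of experiment 2, IFITM3 was called in 8 and DDX58 in 3 of the 14 fits that leave out 1 library, and none of the 3 was called with the close pairs summed. The count was 0 without either of those −Glc WT libraries, 1 without the other −Glc WT library, without either −Glc KO library of experiment 2 or without its KO1 library kept in glucose, 2 without each of the WT libraries kept in glucose, and 5 without either −Glc KO library of experiment 1.

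**Figure D4:**
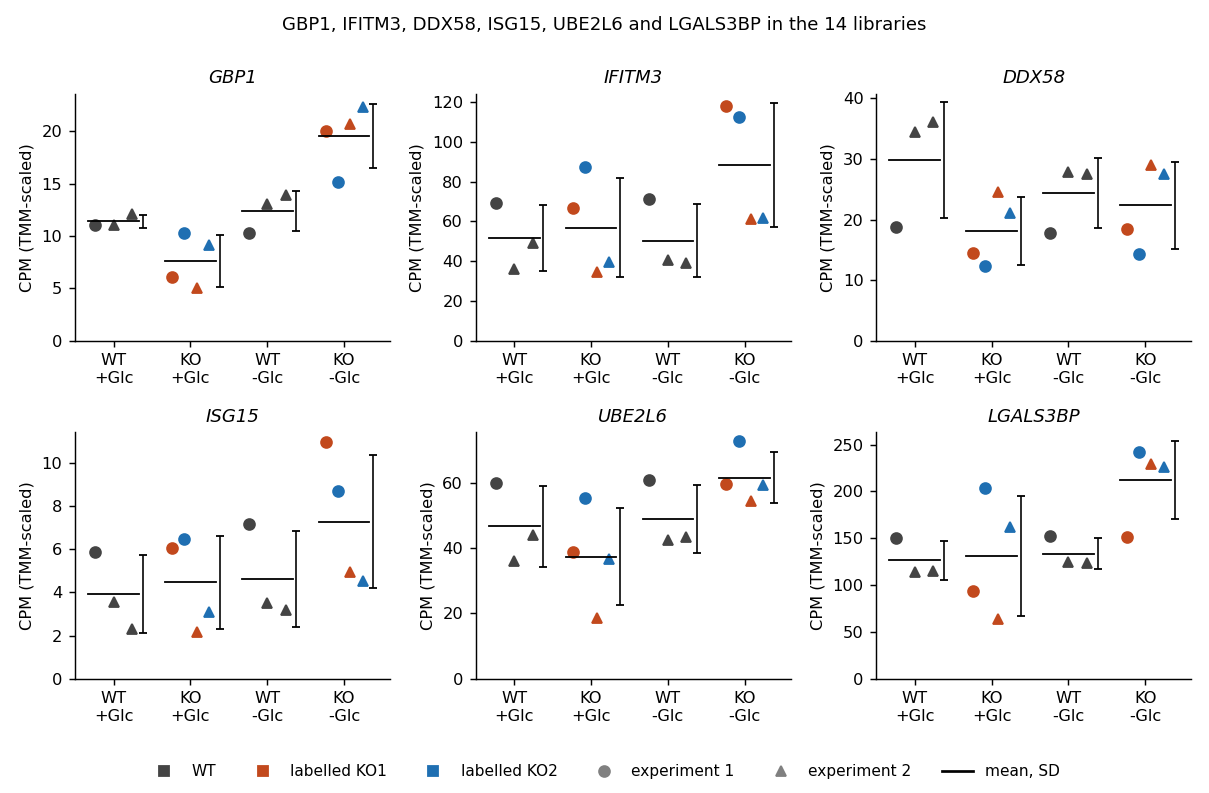
CPM of GBP1, IFITM3, DDX58, ISG15, UBE2L6 and LGALS3BP in each of the 14 libraries, drawn as in the plot of the IFIT genes. GBP1 was at 15.2 to 22.4 CPM in the KO libraries without glucose, above all other libraries, and LGALS3BP of the −Glc library of experiment 2 labelled KO1 (229 CPM) lies with the KO2 libraries.

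Glucose withdrawal was examined within each genotype. In experiment 2 the libraries kept in glucose were counted on both mates and the −Glc libraries were not. In that experiment the way of counting therefore cannot be told apart from glucose. In KMT2D-WT cells no member rose (against 7.15% of all genes) and 6 of 38 fell (15.8%, against 7.58%): IFIH1, OAS3, PARP14, DTX3L, SAMD9 and SP110, a nuclear body protein. PARP14 went from 40.8 to 28.7 CPM in experiment 1 and from 61.1 and 68.2 to 42.4 and 44.0 CPM in experiment 2 (log2 fold change -0.55, SE 0.06, adjusted p = 0.0173). SAMD9 went from 9.10 to 5.25 CPM and from 27.9 and 36.3 to 20.9 and 18.1 CPM (log2 fold change -0.73, SE 0.13, adjusted p = 0.0291). OAS3 went from 147 to 121 CPM and from 154 and 157 to 119 and 120 CPM (log2 fold change -0.34, SE 0.05, adjusted p = 0.0215). The 3 genes were lower without glucose in both experiments. At an unadjusted p under 0.05 edgeR gave 0 higher and 14 lower (against 21.9% and 18.6% of all genes), and DESeq2 called 1 and 12 (against 23.3% and 12.8%). IFIT3 (log2 fold change 0.16) and GBP1 (0.12) were not called. No member was called lower in the fits that leave out 1 of the 4 libraries of experiment 2, and 14 were in those that leave out a library of experiment 1, which use experiment 2 alone, so the count is not firm. With the close pairs summed, 0 were called lower.

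In KMT2D-KO cells 6 of 35 members rose without glucose (17.1%, against 14% of all genes) and 3 fell (8.57%, against 16.0%). With the close pairs summed, 2 were called higher (GBP1 and IFITM3) and 0 lower. GBP1 rose by 1.34 (SE 0.26, adjusted p = 0.0103), IFITM3 by 0.64, ISG15 by 0.72, UBE2L6 by 0.74, IFITM2 by 0.99 and IRF7 by 0.48, and IRF1, IFIT1 and DTX3L fell by 0.64, 1.26 and 0.43. Here the lines are not balanced, since both −Glc libraries of experiment 2 lie close to KO2 while only 1 of the 2 kept in glucose is labelled KO2. Against that KO2 library, GBP1 was at 9.15 CPM with glucose and at 20.7 and 22.4 CPM without it, IFITM3 at 39.4 and at 61.1 and 61.6 CPM, and UBE2L6 at 36.7 and at 54.5 and 59.3 CPM. In experiment 1 alone, with line as a covariate, 1 of these members was called, GBP1 (log2 fold change 1.08). The others kept their direction in this fit of 4 libraries, with log2 fold changes of 0.56 for IFITM3, 0.59 for ISG15, 0.47 for UBE2L6, 0.73 for IFITM2, 0.60 for IRF7, -0.66 for IRF1, -0.87 for IFIT1 and -0.47 for DTX3L. The counts also fell to 2 higher without any 1 of the KO libraries of experiment 2 or the KO1 library of experiment 1 kept in glucose, and to 0 lower without any of the −Glc libraries of experiment 2 or the KO2 library of experiment 2 kept in glucose; 1 was lower without any of the other 3 libraries kept in glucose.

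The lines KO1 and KO2 were compared directly in the libraries with glucose, from which the 20 line genes had been taken. Each line had its own guide, so line and guide cannot be told apart. KO1 had lower levels than KO2 in 10 of 40 members (25.0%, against 7.37% of all genes) and higher levels in 2 (5.00%, against 7.89%). LGALS3BP was at 93.5 and 64.4 CPM in KO1 and at 204 and 162 CPM in KO2, with KMT2D-WT between them at 114 to 150 CPM (log2 fold change -1.23, SE 0.08, adjusted p = 1.19e-07). OAS3 was at 67.6 and 80.9 CPM in KO1 and at 101 and 148 CPM in KO2, against 147 to 157 CPM in KMT2D-WT (log2 fold change -0.73, SE 0.10, adjusted p = 0.000101). EPSTI1, an epithelial-stromal interaction gene, was at 7.30 and 5.65 CPM in KO1 and at 13.3 and 13.0 CPM in KO2, against 12.6 to 14.6 CPM in KMT2D-WT (log2 fold change -1.06, SE 0.15, adjusted p = 0.000228). In OAS3 and EPSTI1 the KO1 libraries were below all others. UBE2L6, GBP1, SAMD9L, IFI35, IRF1, STAT2 and the low OAS1 were lower in KO1 as well, and HERC5 and SP110 were higher. Line KO2 expressed more KRT5, a basal keratin (166 and 82.8 CPM, against 8.78 and 1.5 CPM in KO1), and its part in these differences was not tested.

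Set against KMT2D-WT, KO1 was lower in 24 of the 40 members (against 16.5% of all genes) and higher in 2 (against 17.0%), with a median log2 fold change of -0.69. KO2 was lower in 18 (against 18.0%) and higher in 1 (against 18.8%), with a median of -0.35. The WT libraries are shared by both. IFIT3 had a log2 fold change of -1.39 (SE 0.21) in KO1 and -1.91 (SE 0.22) in KO2, and USP18 one of -1.19 (SE 0.15) and -1.29 (SE 0.16). IFIT2 had -2.40 (SE 0.25) and -1.57 (SE 0.23), and IRF7 -0.66 (SE 0.11) and -0.70 (SE 0.11). These genes were lower in both lines. OAS3 was at -1.0 (SE 0.09) and -0.26 (SE 0.09), and LGALS3BP had opposite signs, at -0.76 (SE 0.08) and 0.48 (SE 0.07). With 2 libraries a line, the call between the lines kept 7, 5, 6 and 5 of 12 members when the KO1 and KO2 libraries of experiment 1 and then of experiment 2 were left out, and LGALS3BP, OAS3 and EPSTI1 were called each time; with experiment left out of the fit 0 were called.

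**Figure D5:**
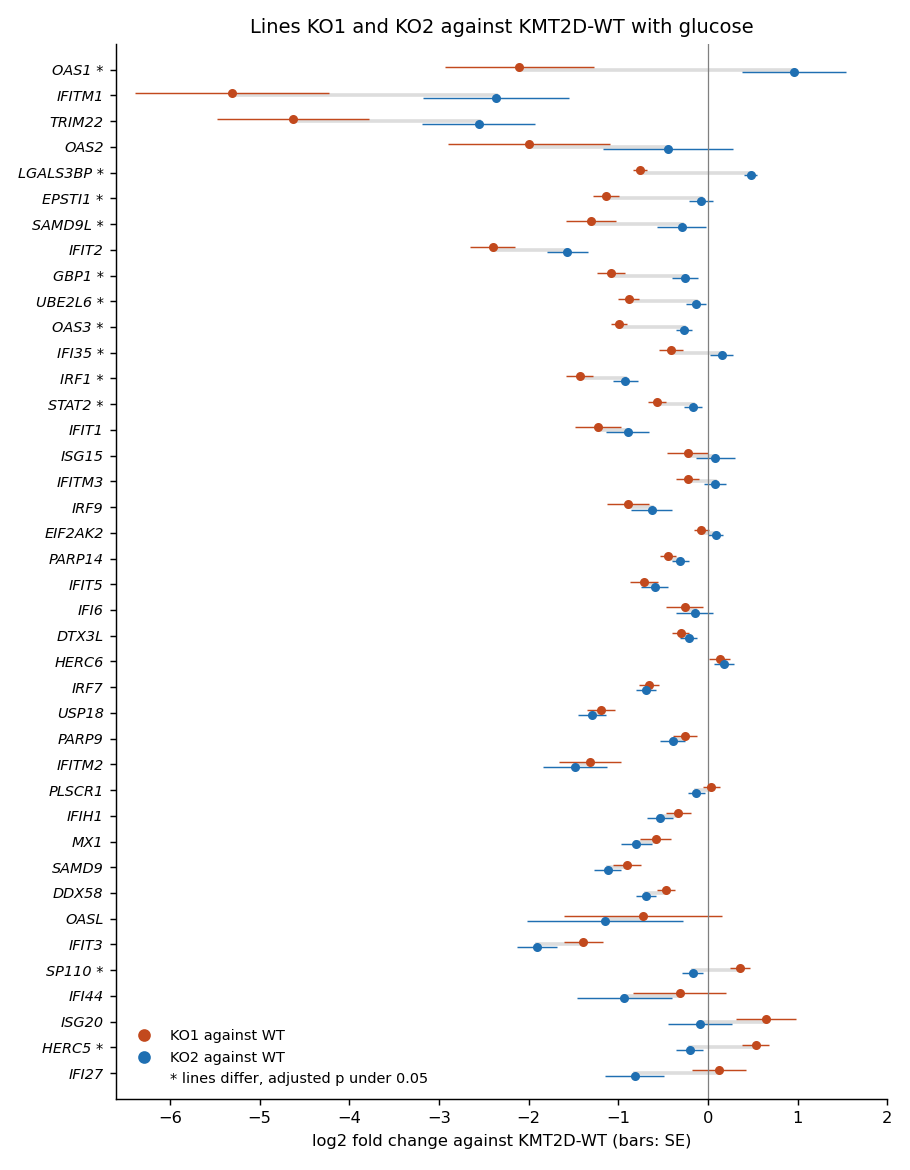
log2 fold change of line KO1 (orange) and line KO2 (blue) against KMT2D-WT with glucose for the 40 members tested, ordered by the difference between the lines; bars are standard errors and an asterisk marks members whose lines differ at an adjusted p under 0.05. IFIT3, USP18, DDX58 and IRF7 are left of 0 in both lines, LGALS3BP lies at -0.76 in KO1 and 0.48 in KO2.

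The members also differed between the experiments, about as often as other genes. With glucose 12 of 40 were higher in experiment 2 (30.0%, against 22.3% of all genes) and 8 were lower (20.0%, against 22.2%), and without glucose 7 of 38 were higher (18.4%, against 25.6%) and 11 lower (28.9%, against 22.4%). EIF2AK2 was at 83.8 to 90.4 CPM in experiment 1 and 162 to 197 CPM in experiment 2 with glucose (log2 fold change 1.07, SE 0.10, adjusted p = 4.27e-05), and at 78.4 to 84.5 and 166 to 183 CPM without it. Its groups by experiment were far apart while its genotypes were not. SAMD9, SAMD9L, DDX58, PARP14 and HERC6 were also higher in experiment 2 with glucose, whereas ISG15, IFITM2 and IFITM3 were lower. IFITM3 fell by 0.91 with glucose and by 0.90 without it. The count of lower members with glucose was 3 without the WT library of experiment 1, 5 without its KO2 library, and 5 and 4 without each WT library of experiment 2; without glucose 13 were higher when the KO1 library of experiment 1 was left out, and 7 and 6 were lower without the first WT library and without the library labelled KO1 of experiment 2. With the close pairs summed, 1 member was higher and 2 were lower without glucose, and EIF2AK2, IFITM3 and ISG15 were the members still called. With glucose, the libraries of experiment 2 were counted on both mates, which cannot be told apart from experiment.

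The other genes of the pathway were taken from a fixed list of 31 ligands, receptors, kinases, factors, inhibitors and sensing genes, of which 24 were tested with glucose (2 higher and 8 lower, against 13.0% and 11.7% of all genes) and 23 without it (4 higher and 7 lower, against 25.9% and 24.9%). Interferon genes were almost silent: IFNG and IFNL3 had no count in any library, IFNB1, IFNK, IFNL1 and IFNL2 stayed under 0.3 CPM, and IFNA1 under 0.5 CPM. The one ligand with a clear level was IFNE, the epithelial type I interferon. It was at 4.0, 6.62 and 5.94 CPM in KMT2D-WT with glucose and at 6.80, 10.4 and 10.8 CPM without it, against 1.93 to 6.30 CPM and 0.438 to 2.70 CPM in KMT2D-KO. The KMT2D-KO effect on IFNE was -0.65 with glucose (not called) and -2.48 without it (SE 0.31, adjusted p = 0.000833), a difference of -1.80 (SE 0.51, adjusted p = 0.0406). With glucose in experiment 2 it was at 6.30 CPM in KO1 and 2.24 CPM in KO2, and both −Glc KO libraries of that experiment lie close to KO2, so this difference mixes line with glucose. In experiment 1 IFNE went from 4.0 to 6.80 CPM in KMT2D-WT, from 2.52 to 0.438 CPM in KO1 and from 1.93 to 1.51 CPM in KO2.

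The receptor chain IFNAR1, shared by all type I interferons, was lower in KMT2D-KO in both conditions. With glucose it was at 50.3 CPM in KMT2D-WT against 25.2 CPM in both lines of experiment 1, and at 111 and 104 against 60.1 and 62.3 CPM in experiment 2 (log2 fold change -0.88, SE 0.08), and without glucose the log2 fold change was -1.22 (SE 0.07). IFNGR2, the second chain of the interferon gamma receptor, fell by 0.82 and 1.09, TYK2 by 0.51 and 0.44, and the inhibitor SOCS3 by 1.03 and 1.93. Without glucose SOCS3 was at 14.3 CPM in KMT2D-WT of experiment 1, against 6.58 CPM in KO1 and 3.25 CPM in KO2. In experiment 2 it was at 10.7 and 11.4 CPM in KMT2D-WT, against 2.37 and 2.51 CPM in KMT2D-KO. IFNGR1 rose by 0.45 and 0.39 and MAVS, the adaptor of the RNA sensors, by 0.57 and 0.60. The genes of this list were not followed under the alternative fits.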

How the data were processed

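RNA-seq libraries of SCC23 cells were grouped by genotype, line, glucose and experiment as the labels give them. The authors mapped reads to GRCh38 with HISAT2 and counted them per gene name with featureCounts 2.0.3 on the Ensembl release 102 annotation, and per the file headers without strand, on primary alignments and, in the 4 libraries of experiment 2 kept in glucose, with both mates. The deposited values are raw counts per gene. Counts on both mates are not independent fragments, so 67.4% to 70.6% of the counts from 1 to 10 were even there, against 37.4% to 42.7% elsewhere. Sizes of change in members under about 1 CPM are not firm.

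Genes were tested in R 4.3.3 with edgeR 4.0.16 (filterByExpr on the groups with a minimum count of 10, TMM scaling, quasi-likelihood fit and test) over all genes, with Benjamini-Hochberg adjusted p under 0.05 taken as a call. Each glucose condition was fitted alone with experiment as a covariate, the change with glucose within each genotype likewise, and the glucose dependence of the KMT2D-KO effect in all 14 libraries, with a term for each experiment in each condition. The paper's methods name no covariate. Experiment was added because the genotypes are unevenly spread over experiments and, within a glucose condition, the libraries went with the experiment number of the labels. Deviations of the genotypes between experiments correlated at 0.92 with glucose and 0.83 without it over 18678 genes, which are not independent replicates. With glucose this value also holds the counting of experiment 2 on both mates. Whether an experiment number marks the same culture in both glucose conditions was not tested, although the fits of glucose withdrawal use it as a covariate. Libraries of one group are not described as separate cultures beyond the experiment, so p-values measure the spread between these libraries, which may in part be technical. Levels are CPM after TMM scaling over the 14 libraries, and RPKM with the exonic length of the count files for comparisons between genes. The members and gene lists were chosen with earlier results of these data known. Members called in a comparison with a mean of at least 1 CPM over its libraries, up to 12 in order of size, are described with their values, and others by range and count. Alternatives were no replicate block, DESeq2 1.42.0 with and without experiment, RLE scaling, no filter, counts of the both-mate libraries divided by 2, the close pairs summed, all libraries in 1 fit and each library left out. Experiment 1 alone with line as a covariate was added after seeing the data. Tested on simulated data with 200 changed genes, the fit with glucose over 20423 genes found 82% of 2-fold and 95% of 4-fold changes, with 4.84% of its calls false. The fit for glucose dependence found 46% of 2-fold changes and KO1 against KO2 57%, and 7.14% of the calls between experiments with glucose were false. The simulated counts had the same spread in every gene and fewer changed genes than were called in the data. They held no difference between experiments, no counting on both mates and no close pairs, so these shares may not hold for the data. Promoter sequences are those of the RefSeq table for GRCh38.p14, and positions in the count files and this table are of the same build.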

Additional observations from a re-analysis of the deposited data

Results flagged for a closer look

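In 3 of 38 members the effect of KMT2D loss differed with glucose (edgeR's quasi-likelihood test in all 14 libraries), against 4.73% of all genes in this direction and 6.54% in the other. With the close pairs summed or experiment left out, 0 of the 3 were called. Both −Glc KO libraries of experiment 2 lie close to KO2, so the difference mixes line with glucose. The effect was more positive without glucose by 1.32 on the log2 scale for GBP1 (adjusted p = 0.0169), by 0.72 for IFITM3 (adjusted p = 0.0253) and by 0.55 for DDX58 (adjusted p = 0.041).

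The KMT2D-KO effect with glucose differed between the lines in 12 of 40 members, 2 higher in KO1 and 10 lower, against 7.89% and 7.37% of all genes, and in 0 with experiment left out. Given as KO1 minus KO2 on the log2 scale, the difference was -1.23 for LGALS3BP, -1.06 for EPSTI1, -1.01 for SAMD9L, -0.83 for GBP1, -0.75 for UBE2L6, -0.73 for OAS3, -0.56 for IFI35, -0.51 for IRF1 and -0.40 for STAT2, and 0.74 for HERC5 and 0.53 for SP110. OAS1 had -3.06 at 0.0304 to 0.900 CPM, a level at which the size is not firm. With 1 library left out, SAMD9L ranged from -2.33 (without KO1 of experiment 2) to -0.73, IRF1 from -0.81 (without KO1 of experiment 2) to -0.30 (without KO1 of experiment 1) and HERC5 from 0.51 to 1.13 (without KO2 of experiment 2), and the call was lost in 3, 3 and 2 of 7 fits.

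In the groups of 4 KMT2D-KO libraries, no member with a mean of at least 1 CPM had a single library apart from the other 3 by Dixon's 95% limit on the CPM scale. Chance passes this limit in about 1 of 20 groups. For LGALS3BP without glucose the result depends on the scale: KO1 of experiment 1 had 151 CPM and the other KO libraries 226 to 242 CPM.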

How the results depend on the processing

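No direction reversed in the 77 called results that were followed under the alternatives. Other members were followed by counts alone, and the other genes of the pathway were not followed. DESeq2 with the same covariates called all 77, RLE scaling 75 and no filter on low counts 70 of 77, and halving the counts of the libraries read with both mates 53 of 53. The close pairs summed kept 12 of 42 calls, with fewer libraries in the fit.

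With no replicate block (experiment left out), KMT2D-KO against KMT2D-WT gave 3 lower with glucose and 1 higher without it, the difference between glucose conditions 0 higher, glucose withdrawal 0 lower in KMT2D-WT and 1 higher and 0 lower in KMT2D-KO, and KO1 against KO2 0 higher and 0 lower. Of the calls compared, 11 of 53 were kept, and the cause was not tested. DESeq2 with no covariate gave 10 lower with glucose and 2 higher without it, and all libraries in 1 fit 2 higher without it. DESeq2 with covariates gave 6 higher for the difference and 1 higher and 12 lower for withdrawal in KMT2D-WT. RLE scaling gave 1 lower for withdrawal in KMT2D-KO. With the close pairs summed, KMT2D-KO against KMT2D-WT without glucose gave 1 higher and 6 lower, the difference 0 higher, withdrawal 0 lower in KMT2D-WT and 2 higher and 0 lower in KMT2D-KO, and experiment 2 against 1 without glucose 1 higher and 2 lower. Experiment 1 with line as covariate gave 1 higher and 0 lower for withdrawal in KMT2D-KO.

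With each library left out, KMT2D-KO against KMT2D-WT gave 8 to 17 lower with glucose, and 2 to 7 higher and 9 to 19 lower without it. The difference gave 0 to 5 higher, withdrawal 0 to 1 higher and 0 to 14 lower in KMT2D-WT and 2 to 6 higher and 0 to 4 lower in KMT2D-KO, KO1 against KO2 0 to 2 higher and 4 to 11 lower, and experiment 2 against 1 gave 3 to 8 lower with glucose and 6 to 13 higher and 6 to 12 lower without it. Of the described results, 410 of 563 kept their call.

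The size of change in members under 1 CPM, the 7 members never tested and the lines without glucose could not be resolved at this depth and with these labels.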
